A study of Mus musculus with 6 samples.

Results

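The canonical Wnt pathway core was described in cultured RVP3 cells as 10 genes. These were the GSK3-binding genes Frat1 and Frat2, the destruction complex genes Axin1, Axin2, Apc and Gsk3b, and the β-catenin gene Ctnnb1. The core also held the coreceptor gene Lrp6 and the scaffold genes Dvl1 and Dvl2. The 10 genes were chosen with earlier results of these data known, and the p-values below do not allow for that choice. Their probes were then taken by gene symbol, as every probe of the deposited log2 table that the platform annotation assigns to one of them. This gave 13 probes of 8 genes, of 8734 named genes with a probe in that table. Frat1 and Lrp6 have no probe there and were not analysed here, so the Frat genes are represented by Frat2 alone. RVP3 is a murine tumour line on the C57BL/6 strain background, and Illumina Mouse WG-6 bead chips were used to profile its total RNA. In the DAC/TSA group (3 arrays) cells that had first been kept in fresh medium for 24 h received 3 µM 5-2´-deoxyazacytidine (DAC), an inhibitor of DNA methyltransferases, for 48 h and then 30 ng/ml Trichostatin A (TSA), an inhibitor of histone deacetylases, for 24 h. The control group (3 arrays) was of the same line and received no agent. The design text calls the arrays of each group biological replicates, and all are cultures of a single line. The treated cultures received both agents and no group here received only DAC or only TSA, so an effect of either agent alone cannot be told apart.

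In cells without a Wnt ligand, the scaffold protein Axin brings β-catenin together with Apc, casein kinase 1 and GSK3, which mark it for degradation. When a Wnt protein binds a Frizzled receptor and the coreceptor Lrp5 or Lrp6, Dvl proteins recruit Axin to the membrane, the complex stops marking β-catenin, and β-catenin enters the nucleus and acts with TCF/LEF factors. Frat proteins, whose relative in frogs is known as GBP, bind GSK3 at the surface that Axin also uses.

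Frat2 and Frat1 are neighbouring protein-coding genes on mouse chromosome 19. The 250 bases upstream of their annotated starts are shown because Frat2 had the largest change among the members while Frat1 has no probe, and that of Wnt6 because it had the largest increase among the listed Wnt pathway genes. The sequences are from RefSeq (GRCm38.p6), written 5′ to 3′ on the strand of the gene, with each CG dinucleotide, the site at which mammalian DNA is methylated, in capitals. Frat2 is at chr19:41848133-41848382 (minus strand), Frat1 at chr19:41829720-41829969 (plus strand) and Wnt6 at chr1:74771642-74771891 (plus strand).
Frat2: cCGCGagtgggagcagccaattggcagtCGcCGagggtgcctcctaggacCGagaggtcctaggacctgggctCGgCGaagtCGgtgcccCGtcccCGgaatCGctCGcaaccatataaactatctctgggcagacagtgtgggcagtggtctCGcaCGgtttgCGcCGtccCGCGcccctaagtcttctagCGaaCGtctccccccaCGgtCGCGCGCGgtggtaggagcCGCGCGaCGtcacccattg
Frat1: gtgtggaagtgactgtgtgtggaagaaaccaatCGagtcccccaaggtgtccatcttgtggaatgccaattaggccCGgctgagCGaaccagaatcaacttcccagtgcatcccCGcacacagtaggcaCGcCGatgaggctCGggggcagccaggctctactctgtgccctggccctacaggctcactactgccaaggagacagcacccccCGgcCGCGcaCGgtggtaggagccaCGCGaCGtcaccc
Wnt6: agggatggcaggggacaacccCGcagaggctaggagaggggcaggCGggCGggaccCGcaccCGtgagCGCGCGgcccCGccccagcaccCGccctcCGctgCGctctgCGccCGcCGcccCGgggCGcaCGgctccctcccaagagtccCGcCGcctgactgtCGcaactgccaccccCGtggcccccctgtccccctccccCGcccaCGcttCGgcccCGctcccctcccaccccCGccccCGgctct
The Frat2 window holds 29 CG dinucleotides, more than 93.2% of 32841 such windows of the genome, of which the median is 6. The Frat1 window holds 14 and the Wnt6 window 28. The Frat windows share 2 exact runs close to the start, CGgtggtaggagcc of 14 letters and CGCGaCGtcaccc of 13 letters, and on either strand each run occurs in only 2 of the 32841 windows, those of Frat1 and Frat2. Of the 10 core genes 7 matched a window. Among the other matched members the window held 24 CG dinucleotides for Axin2, 15 for Gsk3b, 35 and 43 for the starts of Ctnnb1, 26 for Dvl1 and 13 for Dvl2. A TCF/LEF motif was searched on both strands, spelled CTTTGAA (found in 4.45% of all windows) or CTTTGAT (3.21%) or CTTTGTA (3.2%) or CTTTGTT (5.03%). At least one of these spellings was found in 14.8% of all windows and in 0 of the windows of the members and of Wnt6. DNA methylation was not measured on these arrays.

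Between 14101 and 15056 probes were detected on the DAC/TSA arrays and between 13227 and 14261 on the control arrays, a probe being detected where its detection p-value against the negative control beads was 0.01 or less. Changes are differences of quantile-normalised log2 signals, DAC/TSA minus control, tested two-sided with limma over 16760 probes. A probe was called higher or lower where its p-value, adjusted over all these probes by Benjamini-Hochberg, was 0.01 or less. The cells expressed Vim and Sparc, the 2 measured of 5 mesenchymal markers, and Krt8 and Krt18, the 2 measured of 4 epithelial markers. None of these passed the test, nor did Kdr, the 1 measured of 3 endothelial markers. The other markers of these lists were not analysed here. Of 6 leukocyte markers 4 were measured, of which Lyz1, Cd52 and Laptm5 were higher and Cd79b lower, and their summed signal was 357 to 444 intensity units in DAC/TSA cells and 169 to 195 in control cells. Each of these 4 was detected on all 3 arrays of one group and on none of the other. Ptprc and Cd3e were not analysed here, and the part of these markers in the results below was not tested.

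Of the 13 member probes, 6 were lower after DAC/TSA, 0 were higher and 7 did not pass the test (limma, 3 arrays per group). At an unadjusted p under 0.05 the Dvl1 probe ILMN_1228762 was the only one higher. The background was high, since 45.8% of the 16760 tested probes were called (23.4% lower and 22.4% higher), as were 50.1% of the 15131 probes of the deposited log2 table, from which the members come (25.7% lower and 24.4% higher). Counted once per gene by the probe with the highest mean signal, Frat2, Axin1, Axin2 and Dvl2 were lower and Apc, Gsk3b, Ctnnb1 and Dvl1 did not pass. The probes of Axin2 and Dvl2, 2 of the 6 lower ones, were detected on no DAC/TSA array. They were tested only through the control arrays, where they are high, so these counts and the median depend in part on the change itself. The median log2 change of the 8 genes was -0.34, or -0.19 with Axin2 and Dvl2 at the bounds explained below, against -0.02 over all 8734 genes. Groups did not overlap for 8 of the 13 probes, against 66.8% of all probes of the table.

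**Figure D1:**
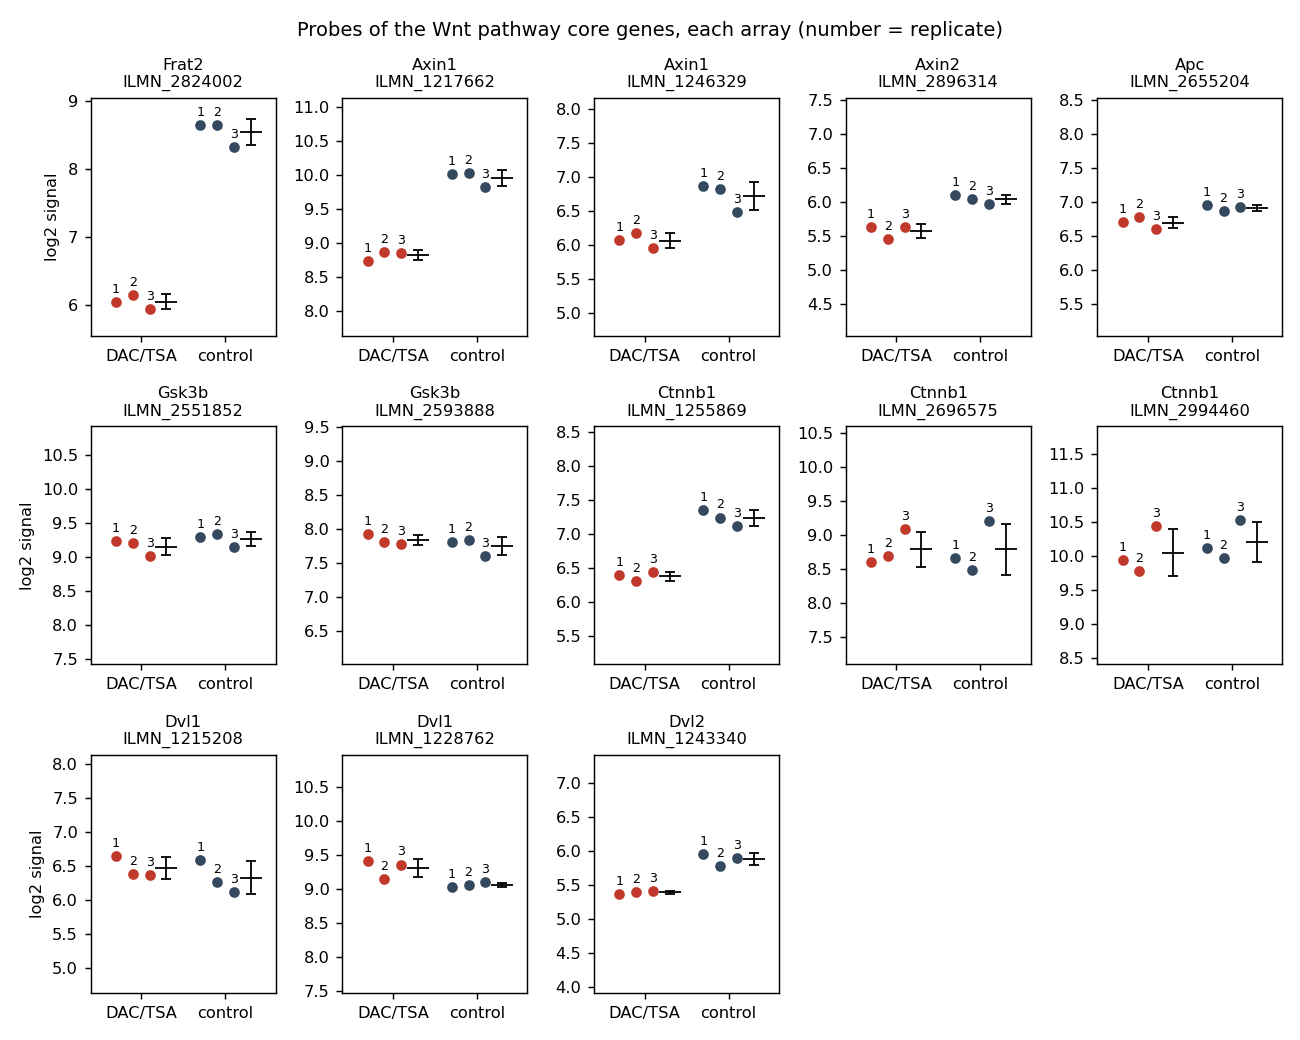
Log2 signal (quantile-normalised, y axis) of each of the 13 member probes on the 3 DAC/TSA arrays (red) and the 3 control arrays (dark), with the replicate number above each point and the mean ± SD beside each group. Every panel spans the same number of log2 units around its own centre, and the widest gap between the groups is that of Frat2, with means of 6.04 in DAC/TSA and 8.53 in control cells.

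Frat2, which binds GSK3 and can release β-catenin from degradation, had the largest change of the core. Its single probe had log2 signals of 6.05, 6.15 and 5.93 in DAC/TSA cells and 8.65, 8.65 and 8.31 in control cells. The groups lay far apart, with control replicate 3 the lowest control array, and the arrays of a group lay close together. The mean was 6.04 ± 0.11 in DAC/TSA cells and 8.53 ± 0.19 in control cells (SD, n = 3 each), a log2 change of -2.49 ± 0.11 (SE, 95% confidence interval -2.73 to -2.26), or 5.63-fold lower (limma adjusted p = 4.17e-09). Only 4 of the 16760 tested probes had a lower log2 change. By comparison, 3.47% of the probes of the deposited log2 table were at least 2-fold lower. The deposited signal itself was 67.6, 71.6 and 67.3 intensity units in DAC/TSA cells and 362, 353 and 354 in control cells. The treated signal stood near the limit of detection, the lowest detected log2 signal being 5.67 to 5.75 on the DAC/TSA arrays, although the probe was detected on all 6 arrays. With background correction by neqc the log2 change was -3.07, and it lay between -2.60 and -2.44 when any single array was left out.

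Of the destruction complex genes, Axin1 and Axin2 were lower by their brightest probes and Apc and Gsk3b did not pass. Ctnnb1, which encodes the β-catenin that the complex marks, did not pass by its brightest probe either. Axin1, the scaffold on which the complex is built, was measured by 2 probes, which were both lower. The brighter, ILMN_1217662, had log2 signals of 8.73, 8.86 and 8.85 in DAC/TSA cells and 10.00, 10.02 and 9.81 in control cells. All treated arrays lay well below all control arrays. Its log2 change was -1.13 ± 0.09 (SE), or 2.19-fold lower (limma adjusted p = 6.71e-07). The dimmer Axin1 probe, ILMN_1246329, had log2 signals of 6.07, 6.17 and 5.96 in DAC/TSA cells and 6.87, 6.82 and 6.48 in control cells. Control replicate 3 was the nearest control array to the treated ones, and the groups did not overlap. The log2 change of this probe was -0.66 ± 0.11 (SE), 1.58-fold lower (limma adjusted p = 0.000296).

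Axin2, a scaffold related to Axin1 and itself a widely used target gene of β-catenin, had log2 signals of 5.64, 5.46 and 5.63 in DAC/TSA cells and 6.10, 6.05 and 5.98 in control cells. Its probe was detected on all 3 control arrays and on no DAC/TSA array, so its treated level is only a bound. For such a group a fold is a lower bound ("at least"): on each array without detection the probe was set to the lowest signal of any detected probe, or to its own signal if that was higher, and the detected group was divided by the mean of these. Axin2 was at least 1.26-fold lower (fitted log2 change -0.47 ± 0.09, SE, limma adjusted p = 0.000715). When arrays were scaled to a common median and not by quantiles, Axin2 no longer passed (adjusted p = 0.0256).

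Apc, the large scaffold protein that binds β-catenin and Axin, had log2 signals of 6.70, 6.78 and 6.61 in DAC/TSA cells and 6.95, 6.86 and 6.92 in control cells. All treated arrays lay below all control arrays, by a small margin. The log2 change of -0.21 ± 0.09 (SE, 95% confidence interval -0.40 to -0.02) did not pass (limma adjusted p = 0.0522).

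Gsk3b, the kinase that phosphorylates β-catenin and the binding partner of the Frat proteins, did not pass by either of its 2 probes. The brighter, ILMN_2551852, which was designed on a cDNA record, had log2 signals of 9.23, 9.20 and 9.002 in DAC/TSA cells and 9.29, 9.32 and 9.13 in control cells. The other, ILMN_2593888, had 7.92, 7.82 and 7.78 in DAC/TSA cells and 7.81, 7.84 and 7.60 in control cells. The groups overlapped for both probes. Their log2 changes were -0.11 (95% confidence interval -0.32 to 0.11, limma adjusted p = 0.379) and 0.09 (-0.12 to 0.30, adjusted p = 0.442).

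Ctnnb1, which encodes β-catenin, gave different results with its 3 probes. The brightest, ILMN_2994460, designed on the RefSeq transcript, had log2 signals of 9.94, 9.78 and 10.44 in DAC/TSA cells and 10.11, 9.98 and 10.53 in control cells. The second RefSeq probe, ILMN_2696575, had 8.59, 8.68 and 9.08 in DAC/TSA cells and 8.66, 8.48 and 9.20 in control cells. On both probes the groups overlapped, and replicate 3 was the highest array of its group in DAC/TSA and in control cells. Their log2 changes were -0.16 ± 0.17 and 0.00 ± 0.17 (SE, limma adjusted p = 0.456 and 0.992), with 95% confidence intervals of -0.52 to 0.21 and -0.37 to 0.37. The third probe, ILMN_1255869, designed on a cDNA record, had log2 signals of 6.39, 6.31 and 6.44 in DAC/TSA cells and 7.35, 7.24 and 7.11 in control cells. Its groups did not overlap, and it was 1.81-fold lower (log2 change -0.86 ± 0.09, SE, limma adjusted p = 6.69e-06). The arrays therefore gave no single value for Ctnnb1, and which transcript the third probe detects was not tested.

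The proteins of the scaffold genes Dvl1 and Dvl2 pass the signal from the receptors to Axin. Dvl1 was measured by 2 probes, neither of which passed, and Dvl2 by 1, which was lower. The difference between the changes of Dvl1 and Dvl2 was not tested. The brighter, ILMN_1228762, had log2 signals of 9.41, 9.16 and 9.37 in DAC/TSA cells and 9.04, 9.06 and 9.10 in control cells. All treated arrays lay above all control arrays, with treated replicate 2 nearest to them, but the log2 change of 0.24 ± 0.09 (SE) did not pass (limma adjusted p = 0.0401). The dimmer, ILMN_1215208, had 6.65, 6.38 and 6.37 in DAC/TSA cells and 6.59, 6.27 and 6.12 in control cells. Its groups overlapped, and its log2 change was 0.14 (limma adjusted p = 0.363). Dvl2 had log2 signals of 5.36, 5.40 and 5.40 in DAC/TSA cells and 5.96, 5.78 and 5.90 in control cells. It was detected on all 3 control arrays and on no DAC/TSA array, at least 1.12-fold lower (fitted log2 change -0.49 ± 0.09, SE, limma adjusted p = 0.000393). Like Axin2, Dvl2 missed the threshold under median scaling (adjusted p = 0.0167).

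**Figure D2:**
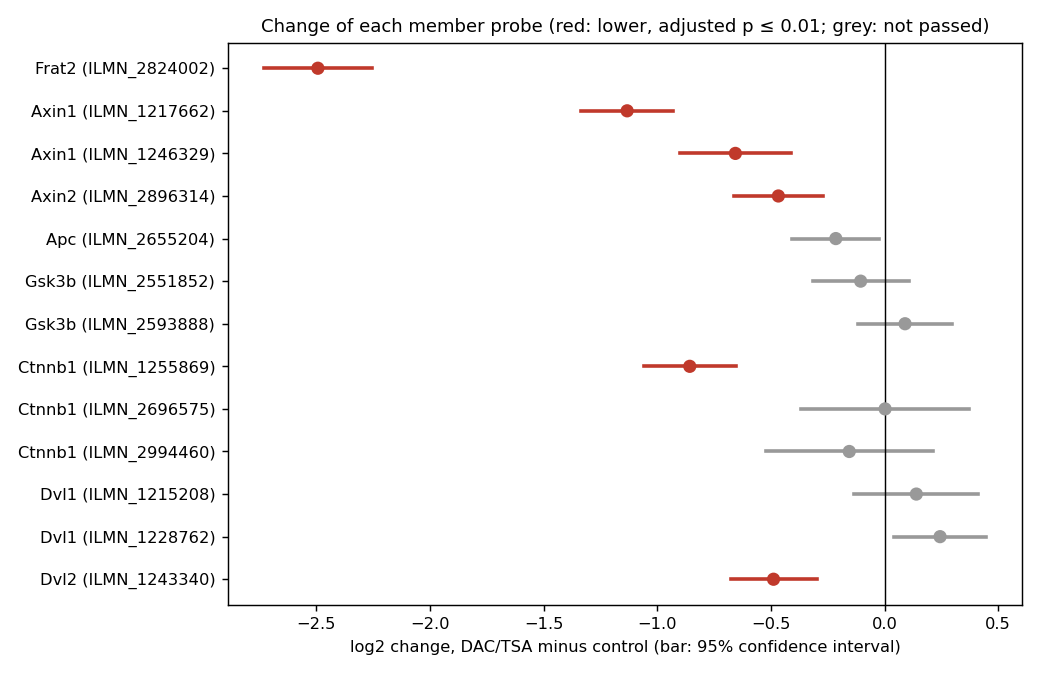
Log2 change, DAC/TSA minus control (x axis), of each of the 13 member probes (y axis), with the 95% confidence interval of the limma fit as a bar, red for probes called lower and grey for those that did not pass. Frat2 at -2.49 stands to the left of the other probes, which run between -1.13 (Axin1) and 0.24 (Dvl1), and the probes of Ctnnb1 lie apart.

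Whether the change of Frat2 differed from that of each other member was tested directly, on the difference between the Frat2 probe and the other probe on each array. The difference in log2 change was smallest against the brighter Axin1 probe, at -1.36 (95% confidence interval -1.66 to -1.06), and largest against the brighter Dvl1 probe, at -2.74 (-3.09 to -2.39). Against Apc it was -2.28, against the Gsk3b probes -2.39 and -2.58, against the Ctnnb1 probes between -2.50 and -1.64, against Axin2 -2.03 and against Dvl2 -2.005. All 12 differences passed (limma adjusted p between 5.92e-11 and 9.16e-08, 3 arrays per group). The same test against every other probe called 99.9% of 16759 probes, so it says nothing particular about these members. Axin2 and Dvl2 were detected on no DAC/TSA array, and their control means of 6.04 and 5.88 stood near the limit of detection. A fall as large as that of Frat2 could not have been seen for either, so the test cannot say whether Frat2 fell further than they did. For the members detected in both groups it says that the Frat2 signal fell further. The tests share the 6 Frat2 values and are not independent.

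The genes whose pattern over the 6 arrays was most like that of Frat2, core and listed Wnt genes left out, were Auts2, Slc23a3, Fgf21, Ikbkg and Klhl21. The measure was the Euclidean distance between probes after each probe's control mean had been subtracted, which was 0.28 log2 units for Auts2, 0.33 for Slc23a3, 0.47 for Fgf21, 0.51 for Ikbkg and 0.54 for Klhl21. Auts2 had log2 signals of 6.27, 6.34 and 6.19 in DAC/TSA cells and 8.67, 8.72 and 8.63 in control cells. As with Frat2, treated replicate 2 was its highest and treated replicate 3 its lowest treated array. That order was not particular to these genes, since Apc and the dimmer Axin1 probe had it as well. Slc23a3, the next nearest gene, did not have it.

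The other genes of the pathway were taken from lists of 119 genes by role, of which 51 were measured. Of these, 10 were higher, 17 lower and 24 did not pass, so that 52.9% were called, against 52.8% of all 8734 genes (27.0% higher and 25.8% lower). Without the core members the counts were 10 higher, 13 lower and 20 not passed of 43. A gene not detected in one group had a named probe only if it was detected in the other, so the counts of mostly silent lists such as the ligands depend in part on the change itself.

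**Figure D3:**
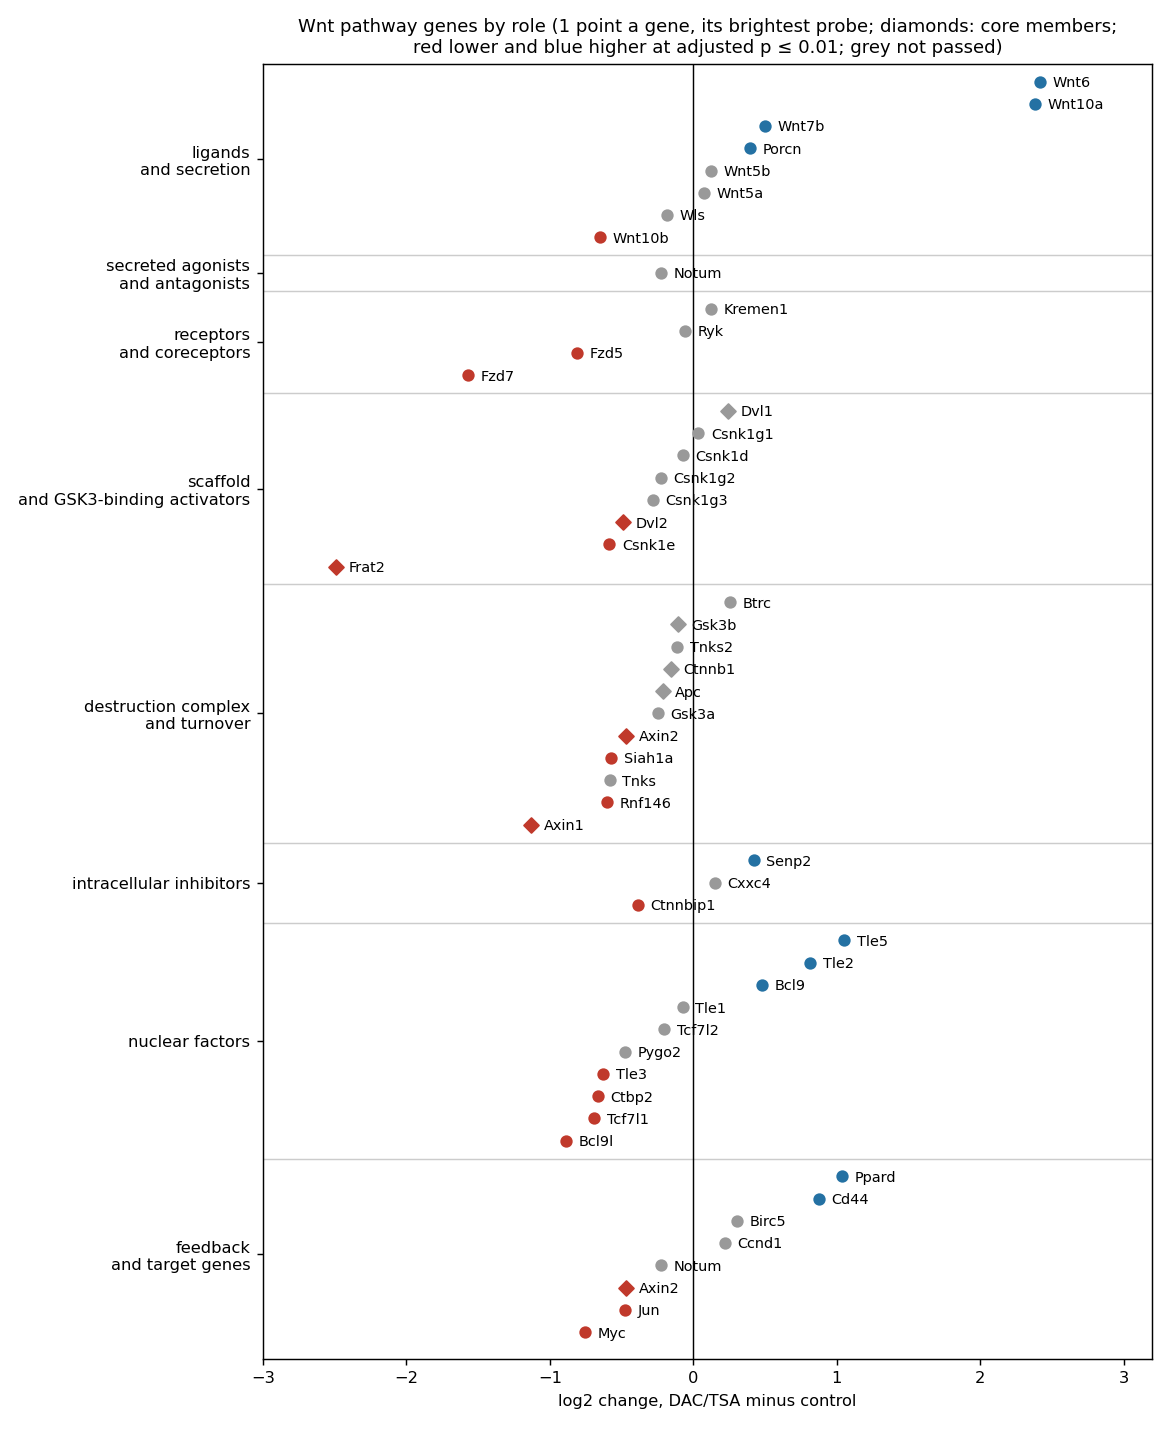
Log2 change, DAC/TSA minus control (x axis), of the 51 measured Wnt pathway genes grouped by role (y axis, Axin2 and Notum in 2 groups), each by its brightest probe, with diamonds for the core genes, blue for higher, red for lower and grey for not passed. Wnt6 and Wnt10a lie farthest to the right at 2.41 and 2.38 and Frat2 farthest to the left at -2.49. The scaffold and destruction complex lists hold no gene called higher, against 27.0% of all genes.

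Among the ligands and the genes of their secretion, 8 of 21 were measured, of which 4 were higher and 1 lower. That is 62.5% called, against 52.8% of all genes (27.0% higher and 25.8% lower). Of the genes called higher, Wnt6 and Wnt10a were tested only through the treated arrays, where they are high. Wnt6 had log2 signals of 8.10, 7.99 and 7.97 in DAC/TSA cells and 5.59, 5.74 and 5.48 in control cells by its brighter probe. It was detected on every treated array and on no control array, at least 4.69-fold higher (fitted log2 change 2.41 ± 0.09, SE, limma adjusted p = 1.61e-09), and its second probe had the same fitted change of 2.41. Wnt10a, the protein-coding gene next to Wnt6 in the genome, had 7.66, 7.77 and 8.30 in DAC/TSA cells and 5.49, 5.38 and 5.72 in control cells. Detection was again seen on every treated array and on no control array, with a level at least 4.35-fold higher (limma adjusted p = 7.38e-08). Wnt7b was higher by a log2 change of 0.50 (limma adjusted p = 0.000643), whereas its dimmer probe had 0.05 (adjusted p = 0.698) and the call was lost under median scaling. Wnt10b, a ligand of canonical signalling, went the other way, with 6.50, 6.61 and 6.15 in DAC/TSA cells and 6.97, 7.25 and 6.97 in control cells. Its groups did not overlap (log2 change -0.65 ± 0.12, SE, limma adjusted p = 0.000709).

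Of 22 listed receptors and coreceptors 4 were measured, of which 2 were lower and 2 did not pass, with a median log2 change of -0.44. The share called was 50%, against 52.8% of all genes. Fzd7, a Frizzled receptor, had log2 signals of 7.22, 7.34 and 7.18 in DAC/TSA cells and 8.79, 8.71 and 8.95 in control cells. The groups did not overlap, and Fzd7 was 2.97-fold lower (log2 change -1.57 ± 0.10, SE, limma adjusted p = 5.23e-08). Fzd5, another Frizzled, had 8.02, 8.003 and 7.76 in DAC/TSA cells and 8.75, 8.83 and 8.65 in control cells by its brighter probe, 1.76-fold lower (limma adjusted p = 1.73e-05). The dimmer of the Fzd5 probes did not pass, at 0.20 on the log2 scale (limma adjusted p = 0.0841). This probe was detected on 2 DAC/TSA arrays and 0 control arrays. Its means of 5.73 in DAC/TSA and 5.52 in control cells were near the limit of detection, so it could not show a fall like that of the brighter probe.

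**Figure D4:**
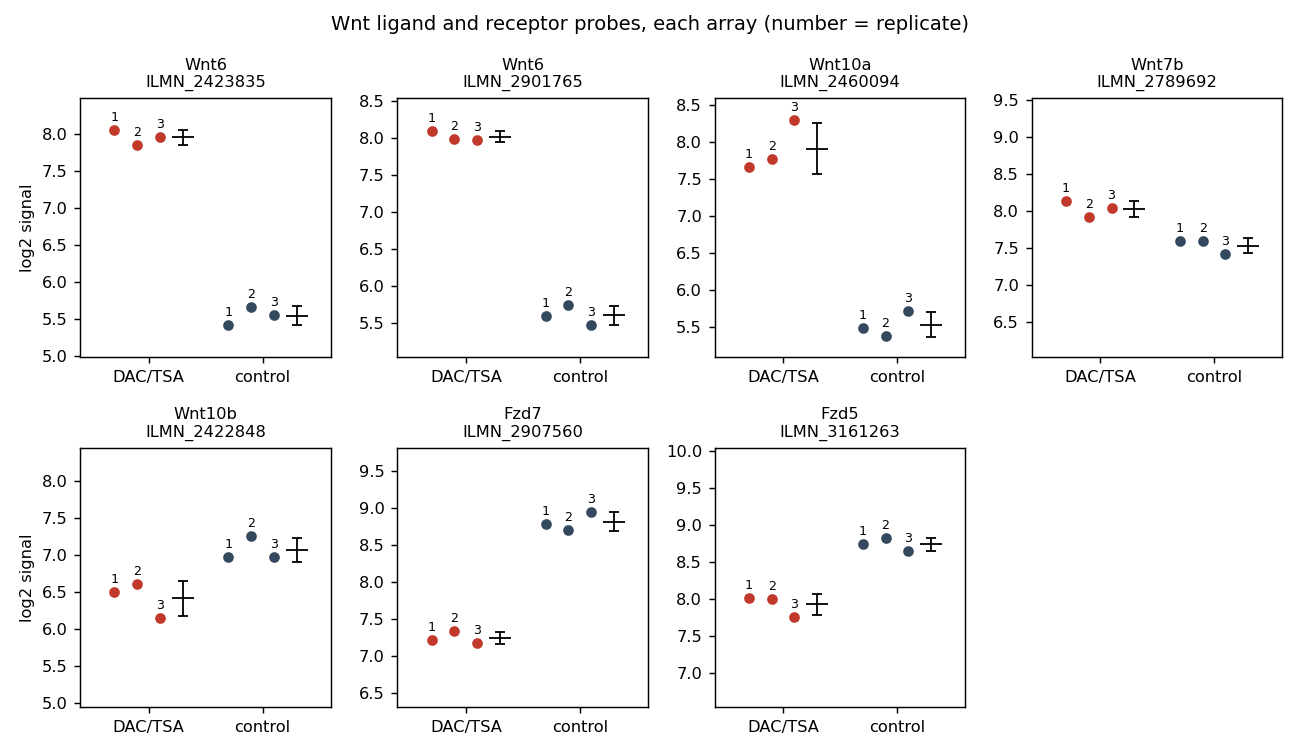
Log2 signal (quantile-normalised, y axis) of Wnt ligand and Frizzled probes on the 3 DAC/TSA arrays (red) and the 3 control arrays (dark), with the replicate number above each point and the mean ± SD beside each group. Both Wnt6 probes and Wnt10a lie higher on all treated arrays than on any control array, where they were not detected, and Fzd7, Fzd5 and Wnt10b are lower after treatment.

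The scaffold and destruction complex lists include the core members, which were chosen with earlier results known. No measured gene of these lists was called higher by its brightest probe, against 27.0% of all genes. With the replicate number as a block, 1 gene of the destruction complex list was called higher. Of 8 measured scaffold genes and GSK3-binding activators, 3 were lower, namely Frat2 and Dvl2 of the core and Csnk1e. Csnk1e, a casein kinase that acts on Dvl, had a log2 change of -0.59. Of 11 measured genes of the destruction complex and its turnover 4 were lower, namely Axin1 and Axin2 of the core, Rnf146 and Siah1a. Rnf146, a ubiquitin ligase that removes Axin, had a log2 change of -0.60 (detected on 1 of 3 DAC/TSA arrays, and -0.97 with neqc). Siah1a, a ubiquitin ligase for β-catenin, had a log2 change of -0.57. The call of Siah1a was lost without DAC/TSA replicate 1 (adjusted p = 0.0117), without control replicate 2 (adjusted p = 0.0111) and under median scaling. Shares called in these lists, core members included, were 37.5% and 36.4%, below the 52.8% of all genes, a description with no test. Of 3 measured intracellular inhibitors, Senp2 was higher (0.42), Ctnnbip1, which keeps β-catenin from TCF factors, was lower (-0.39), and Cxxc4 did not pass. That is 66.7% called, against 52.8% of all genes. The call of Ctnnbip1 was lost without DAC/TSA replicate 2 or 3 or control replicate 1 or 2 (adjusted p between 0.0228 and 0.0477). The 1 measured secreted regulator, the Wnt-inactivating enzyme Notum, did not pass (log2 change -0.23, limma adjusted p = 0.0884).

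Of 10 measured nuclear factors of the pathway, 3 were higher and 4 lower. The share called was 70%, against 52.8% of all genes (27.0% higher and 25.8% lower). Tle5 (log2 change 1.05, 2.07-fold) and the corepressor gene Tle2 (0.82, 1.76-fold, detected on 1 of 3 control arrays) were higher. Bcl9, a coactivator that binds β-catenin, was also higher (0.48). Bcl9l, its close relative, was 1.85-fold lower (-0.89), Tcf7l1, a TCF factor that mostly represses, was lower (-0.69), and so was the corepressor Ctbp2 (-0.67). Bcl9 and Bcl9l thus went in opposite directions. Bcl9 had log2 signals of 7.25, 7.14 and 7.08 in DAC/TSA cells and 6.83, 6.69 and 6.51 in control cells. Bcl9l had 7.99, 7.91 and 7.80 in DAC/TSA cells and 8.94, 8.82 and 8.61 in control cells. Neither gene's groups overlapped.

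Of 8 measured genes known as targets of β-catenin, 2 were higher and 3 lower, with a median log2 change of -0.005. The share called was 62.5%, against 52.8% of all genes (27.0% higher and 25.8% lower). Ppard, a nuclear receptor, was 2.05-fold higher (log2 change 1.03), and the adhesion receptor gene Cd44 1.83-fold higher (0.87). The transcription factor gene Myc was 1.69-fold lower, with log2 signals of 7.99, 7.76 and 7.84 in DAC/TSA cells and 8.76, 8.58 and 8.52 in control cells. Jun was lower by a log2 change of -0.47 (limma adjusted p = 0.00444) but missed the threshold without DAC/TSA replicate 2 or control replicate 1 or 2 (adjusted p between 0.0177 and 0.0252), and Axin2 was lower as described above. The cyclin gene Ccnd1 did not pass (log2 change 0.22, limma adjusted p = 0.104). Birc5 narrowly missed the threshold by its brightest probe (log2 change 0.31, limma adjusted p = 0.0102). Its other 2 probes were called higher (0.47 and 0.36). Many of these genes answer to other pathways as well. Over all lists, 20 genes had several probes, of which 7 had probes that differed in passing the test and 0 had probes called in opposite directions. Besides those already named, Csnk1e, Senp2, Ctnnbip1, Tle5, Tcf7l1 and Jun lost their call under median scaling, and Ctnnbip1 and Jun also with neqc.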

How the data were processed

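RVP3 RNA of 3 DAC/TSA and 3 control cultures was hybridised to Illumina Mouse WG-6 arrays. The authors extracted probe signals with BeadStudio and deposited them as intensity values on a linear scale, each with a detection p-value, for 45281 probes. They also deposited log2 values of 15131 probes, which the methods describe as quantile-normalised and filtered on detection. The submitters' processing notes name limma.

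From the deposited signals, log2 values were quantile-normalised here over all probes and matched the deposited log2 table to within 5e-14. Probes with a detection p-value of 0.01 or less on at least 1 array (16760) were tested with lmFit and eBayes in limma 3.58.1 (R 4.3.3), Benjamini-Hochberg adjustment over all of them and a threshold of 0.01. Figures were drawn with Python 3.11.15 and matplotlib 3.10.9. The script was tested on simulated data. Probe names came from the platform annotation (13126 probes with 1 symbol, 6 with several, which were given no name), and 3634 tested probes are unnamed here. A gene stands by its probe of highest mean signal. The number of arrays limits the precision. The p-values measure the spread between cultures of a single line. No slide or scan is given in the sources used here.

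The members and the gene lists were chosen with earlier results of these data known. Named genes were every probe of the members, in each role list up to 3 genes with the largest change in each direction among those past the threshold, and the 5 genes nearest to Frat2. Bcl9 and Bcl9l were set side by side after their values had been seen. Ccnd1, Notum and Cxxc4 were added as members of short lists, and Birc5 because its probes differed in passing. Upstream sequences were matched by gene symbol in the RefSeq table of GRCm38.p6.

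The labels number the replicates without stating what a number shares. After each probe's group mean was subtracted, same-numbered DAC/TSA and control arrays had correlations of 0.34, 0.24 and 0.65 over probes, all above 0.1, so a fit with the number as a block was also run. Across numbers, DAC/TSA replicate 1 and control replicate 2 had 0.37 and DAC/TSA replicate 2 and control replicate 1 had 0.22, so replicates 1 and 2 were not told apart by number, and the other pairs were below 0. Alternatives were median scaling, neqc with an offset of 16, other detection filters, the deposited log2 table, an intensity trend with a robust prior, the mean over the probes of a gene and leaving out each array.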

Additional observations from a re-analysis of the deposited data

How the results depend on the processing

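Frat2, both Axin1 probes and the lower Ctnnb1 probe kept their direction and call under every alternative run, with log2 changes of -3.07 to -2.44 for Frat2. Median scaling moved the counts of calls most. It called 2032 probes higher and 1286 lower, against 3748 and 3926 in the reported fit, so that 61.2% of the called probes were higher, against 48.8%. Over the Wnt lists it called 6 genes higher and 9 lower, against 10 and 17. Axin2 (log2 change -0.42, adjusted p = 0.0256) and Dvl2 (-0.47, adjusted p = 0.0167) no longer passed, which left 4 member probes lower, and 8 of 21 named list genes lost their call (Wnt7b, Csnk1e, Siah1a, Senp2, Ctnnbip1, Tle5, Tcf7l1 and Jun). The cause was not tested. With neqc the fitted log2 changes were -0.80 for Axin2 and -0.78 for Dvl2, and 2 of these 21 lost their call (Ctnnbip1 and Jun) and with a trended robust prior 1 (Ctnnbip1).

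With the replicate number as a block, Frat2 had the same log2 change of -2.49 (adjusted p = 8.65e-13), all 13 member probes kept their call, and the Wnt lists held 12 genes higher and 20 lower.

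When single arrays were left out, the RefSeq probes of Ctnnb1, neither of which passed, ranged from -0.15 to 0.21 (ILMN_2696575) and from -0.35 to 0.0082 (ILMN_2994460) and changed sign, and no member probe lost or gained its call. The trended prior was not run for the differences between Frat2 and other probes, which have no intensity of their own. Signals near the limit of detection, such as those of treated Frat2, Axin2 and Dvl2, include background, so their log2 changes depend on its correction. Frat2 rests on 1 probe, and Frat1 and Lrp6 on none.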
